A study of Mus musculus with 29 samples.

Results

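The phagocyte NADPH oxidase was followed in mouse liver through 5 of its subunit genes: Cybb, Cyba, Ncf1, Ncf4 and Rac2. They were chosen by name as parts of the same enzyme, with no rule on their values but with earlier results of these data known. They make up 5 of the 22180 genes named on the arrays and 5 of the 14699 genes bright enough to test. Each is measured by 1 row of the deposited table. The animals were male C57BL/6N mice of 8 to 10 weeks with no genetic change named in the labels. In 20 of them the extrahepatic common bile duct was ligated (bile duct ligation, BDL), with livers taken at days 1, 3, 7 and 21, 5 at each day. The other 9 were sham-operated controls, 3 at day 1, 2 at day 3 and 4 at day 7. No sham liver of day 21 was analysed here, so BDL at day 21 is set against sham at day 7. There, the effects of ligation and of the later time cannot be told apart.

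The oxidase moves electrons from NADPH across a membrane onto oxygen and so makes superoxide, the start of the respiratory burst with which neutrophils and macrophages attack microbes. Its core, flavocytochrome b558, sits in the membrane and is made of gp91phox, the electron-carrying chain encoded by Cybb, and its stabilising partner p22phox, encoded by Cyba. In a resting cell the organiser p47phox (Ncf1) and p40phox (Ncf4) wait in the cytosol. On activation they join the core together with a Rac GTPase, which in blood cells is chiefly Rac2. Loss of gp91phox, p22phox or p47phox causes chronic granulomatous disease. In liver the resident phagocytes are the Kupffer cells, and in cholestasis, the stop of bile flow, monocytes and neutrophils enter the tissue. Cyba is carried by many cell types, since p22phox also serves other NADPH oxidases.

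Values are log2 expression values, so a difference of 1 is a doubling. Array medians over all rows lay between 4.90 and 5.13, the correlation of 2 arrays over the genes tested was between 0.889 and 0.990, and the number of arrays limits the precision. At day 1, 4 arrays stood apart: replicates 1 and 3 of sham and 2 and 3 of BDL. Over the genes tested their log2 values had an SD of 1.55 to 1.58, against 1.64 to 1.70 in the others, and the mean of 71 small nucleolar RNA genes was 9.02 to 9.49 against 7.72 to 8.53. They are called the arrays of low spread, a limit set after the data were seen, and each day 1 result of a subunit is given with and without them. Without them sham day 1 is a single array, set against 3 BDL arrays, and its spread is taken from the remaining groups. Within them each group has 2 arrays. The labelled tissue showed in its markers: the mean of 8 hepatocyte genes lay between 12.4 and 12.7 in every array. Of the 8, 1 or 2 fell in each comparison with sham, where between 3.69% and 7.9% of all genes fell. Albumin, Alb, did not pass in any. In bulk tissue, fewer cells of a type and less RNA per cell cannot be told apart, and this holds for every difference given.

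The stretches of 250 bases before the annotated start of Cybb (chrX:9469325-9469574, minus strand), Cyba (chr8:122432941-122433190, minus strand) and Ncf1 (chr5:134229626-134229875, minus strand) are shown because these 3 genes rose by day 7 and PU.1, an ETS-family factor known to act on phagocyte oxidase genes in blood cells, has a gene, Spi1, that was measured in the same livers. They come from RefSeq, build GRCm38.p6, which the table of promoters held for 3 of the 5 genes, and are written 5′ to 3′ in the gene's direction. Capitals mark GGAA, the core shared by ETS sites, or its reverse complement TTCC.

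Cybb promoter: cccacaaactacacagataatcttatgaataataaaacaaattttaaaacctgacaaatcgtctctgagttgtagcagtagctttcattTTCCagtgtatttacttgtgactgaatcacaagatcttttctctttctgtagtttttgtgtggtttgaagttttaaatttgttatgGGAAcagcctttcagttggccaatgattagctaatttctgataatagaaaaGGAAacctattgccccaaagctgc
Cyba promoter: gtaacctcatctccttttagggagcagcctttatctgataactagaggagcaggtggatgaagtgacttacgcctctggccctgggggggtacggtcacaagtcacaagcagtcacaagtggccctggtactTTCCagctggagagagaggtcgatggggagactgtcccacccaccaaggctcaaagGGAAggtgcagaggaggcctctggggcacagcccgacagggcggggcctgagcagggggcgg
Ncf1 promoter: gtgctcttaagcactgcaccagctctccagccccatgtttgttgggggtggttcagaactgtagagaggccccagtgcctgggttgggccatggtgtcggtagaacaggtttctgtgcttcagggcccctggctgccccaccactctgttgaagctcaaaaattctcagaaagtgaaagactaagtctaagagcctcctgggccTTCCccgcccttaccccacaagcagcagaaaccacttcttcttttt

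The stretch of Cybb holds GGAA at 75 and 24 bases before the start and its reverse complement at 161. Cyba has GGAA at 62 and the reverse complement at 118, and Ncf1 has 1 match, the reverse complement at 46. Positions are those of the first base of the match. Of all 32851 promoters of this length, 93.4% hold GGAA on either strand, with a median of 3 matches, and the core was added after the data were seen. The longer PU.1 core GAGGAA, which contains GGAA, was searched on both strands and has no match in the 3 stretches; 23.3% of all promoters hold it.

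Cybb rose most in size. Its level was indistinct from the controls at day 1, stood above them in every BDL liver at day 3, and was 4.92-fold higher at day 7 and 9.18-fold higher at day 21. In sham livers Cybb read 6.49, 8.28 and 6.01 at day 1, 7.80 and 7.58 at day 3, and 7.66, 7.70, 7.59 and 7.36 at day 7. After ligation the values were 7.58, 6.31, 6.12, 7.06 and 9.05 at day 1 and 8.29, 8.64, 8.64, 8.99 and 8.52 at day 3. They were 9.53, 9.65, 9.88, 10.11 and 10.20 at day 7 and 10.48, 10.82, 10.85, 11.01 and 10.73 at day 21. From day 3 on no BDL liver overlapped the sham livers it was set against, and the ranges of BDL at days 3, 7 and 21 did not overlap each other. At day 1 the 2 groups lay on top of each other, and both were wide.

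With limma fitted over all genes, the log2 fold change of Cybb was 2.30 ± 0.39 (SE) at day 7 (n = 5 against 4, adjusted p = 7.99e-05) and 3.20 ± 0.39 at day 21 against sham day 7 (adjusted p = 3.88e-07). At day 3, with only 2 sham livers, it was 0.93 ± 0.49 with an adjusted p of 0.265 and did not pass, although all 5 BDL livers lay above both sham livers. The fit shares 1 spread per gene over all groups. Fitted on the day 3 arrays alone, with a term for the arrays of low spread, without those arrays, or against all 9 sham arrays, Cybb passed. At day 1 the difference was 0.30 ± 0.43 (adjusted p = 0.730). The low values of day 1 belong to the arrays of low spread, at 6.01 to 6.49 in sham and 6.12 to 6.31 in BDL, while the other day 1 arrays read 8.28 in sham and 7.06 to 9.05 in BDL. The leukocyte gene Ptprc, which encodes CD45, moved with it, at 5.84 to 6.41 and 5.91 to 6.06 in the arrays of low spread against 7.05 and 6.10 to 7.34. Their part in the Cybb values was not tested. Without these arrays the difference at day 1 was -0.39 ± 0.42, and within them -0.04 ± 0.22; neither passed.

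Cyba, the partner of Cybb in the membrane, was level with the controls at day 1, 1.87-fold higher at day 3 and 2.18-fold higher at day 7, and it stood at 2.22-fold at day 21. Sham livers read 7.31, 6.96 and 6.90 at day 1, 6.83 and 6.73 at day 3, and 7.30, 7.28, 6.75 and 6.60 at day 7. In BDL livers Cyba was 7.04, 7.01, 7.17, 7.02 and 7.21 at day 1, 7.35, 7.65, 7.71, 7.92 and 7.77 at day 3, 7.99, 8.04, 8.21, 7.78 and 8.51 at day 7, and 7.90, 7.95, 8.12, 8.54 and 8.15 at day 21. From day 3 every BDL liver lay above the sham livers it was compared with, and the ranges of days 3, 7 and 21 overlapped. The log2 fold changes were 0.04 ± 0.17 at day 1 (limma adjusted p = 0.929), 0.90 ± 0.19 at day 3 (0.00252), 1.12 ± 0.16 at day 7 (5.22e-06) and 1.15 ± 0.16 at day 21 (1.8e-06). At day 1 it was 0.14 ± 0.27 without the arrays of low spread and -0.02 ± 0.21 within them. Without sham day 3 replicate 2 the day 3 value was still positive but its adjusted p was 0.0542.

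Among the cytosolic subunits, Ncf1, whose protein p47phox carries the phosphorylation switch of the complex, was the only one of the 5 to pass at day 1. Sham livers read 6.04, 6.31 and 6.14 at day 1, 5.87 and 6.24 at day 3, and 5.96, 5.85, 6.40 and 5.84 at day 7. BDL livers read 6.82, 6.68, 6.17, 6.76 and 6.94 at day 1, 6.54, 6.68, 6.74, 6.93 and 6.41 at day 3, 7.07, 7.10, 7.02, 7.04 and 7.44 at day 7, and 7.17, 7.37, 7.32, 7.62 and 7.27 at day 21. At day 1, 4 of 5 BDL livers lay above every sham liver and the fifth, an array of low spread, overlapped them; from day 3 on the groups did not overlap.

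The log2 fold change of Ncf1 was 0.51 ± 0.16 at day 1 (limma adjusted p = 0.0280), 0.61 ± 0.18 at day 3 (0.0273), 1.12 ± 0.14 at day 7 (1.73e-06) and 1.34 ± 0.14 at day 21 (5.46e-08). At days 7 and 21 that is 2.18-fold and 2.53-fold. The day 1 call is fragile. It was lost in 9 of 18 alternatives, among them without any one of BDL day 1 replicates 1, 4 and 5 and sham day 1 replicates 1 and 3, and its adjusted p ranged from 0.000311 to 0.514. The value itself was 0.53 ± 0.22 without the arrays of low spread and 0.34 ± 0.22 within them. At day 3 the call was lost with only the arrays compared and without any of BDL day 3 replicates 3 and 4 and sham day 3 replicate 1.

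Ncf4 encodes p40phox, the subunit that binds the phosphoinositide of phagosome membranes. It had the smallest change of the 5 against sham at days 3, 7 and 21. Its sham values were 5.56, 5.80 and 5.68 at day 1, 5.57 and 5.69 at day 3, and 5.96, 5.65, 5.96 and 5.82 at day 7. After ligation it read 6.25, 5.32, 5.50, 5.90 and 6.18 at day 1, 6.01, 5.84, 6.01, 6.36 and 5.53 at day 3, 6.06, 5.85, 5.95, 6.12 and 6.67 at day 7, and 6.29, 6.64, 6.70, 6.60 and 6.48 at day 21. Only at day 21 did all 5 BDL livers lie above the sham livers. The log2 fold changes were 0.15 ± 0.19, 0.32 ± 0.22 and 0.28 ± 0.17 at days 1, 3 and 7, with limma adjusted p of 0.675, 0.415 and 0.287, and 0.69 ± 0.17 at day 21 (adjusted p = 0.00357, 1.61-fold). At day 1 Ncf4 read 0.31 ± 0.26 without the arrays of low spread and -0.20 ± 0.20 within them, so its sign depends on them. At day 7 it passed only against all 9 sham arrays (0.0401). Ncf4 is also the dimmest of these rows, not far above the level of 5 below which a value was not told apart from background.

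Rac2, the GTPase that completes the active enzyme, read 7.96, 8.02 and 7.39 in sham at day 1, 8.12 and 8.10 at day 3, and 8.53, 8.35, 8.18 and 8.01 at day 7. In BDL livers it was 8.28, 8.24, 7.77, 7.95 and 8.67 at day 1, 8.50, 8.73, 8.70, 8.97 and 8.86 at day 3, 9.20, 9.01, 9.32, 9.43 and 9.54 at day 7, and 9.18, 9.33, 9.50, 9.88 and 9.44 at day 21. The groups overlapped at day 1 and were apart from day 3 on. Rac2 changed by 0.39 ± 0.18 at day 1 (limma adjusted p = 0.156), 0.64 ± 0.20 at day 3 (0.0419), 1.03 ± 0.16 at day 7 (3.12e-05) and 1.20 ± 0.16 at day 21 (1.98e-06). From day 3 on these are 1.56-fold, 2.05-fold and 2.30-fold. At day 1 it read 0.29 ± 0.26 without the arrays of low spread and 0.33 ± 0.25 within them. The day 3 call was lost with no filter and without any of BDL day 3 replicates 3, 4 and 5 or either sham liver.

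**Figure D1:**
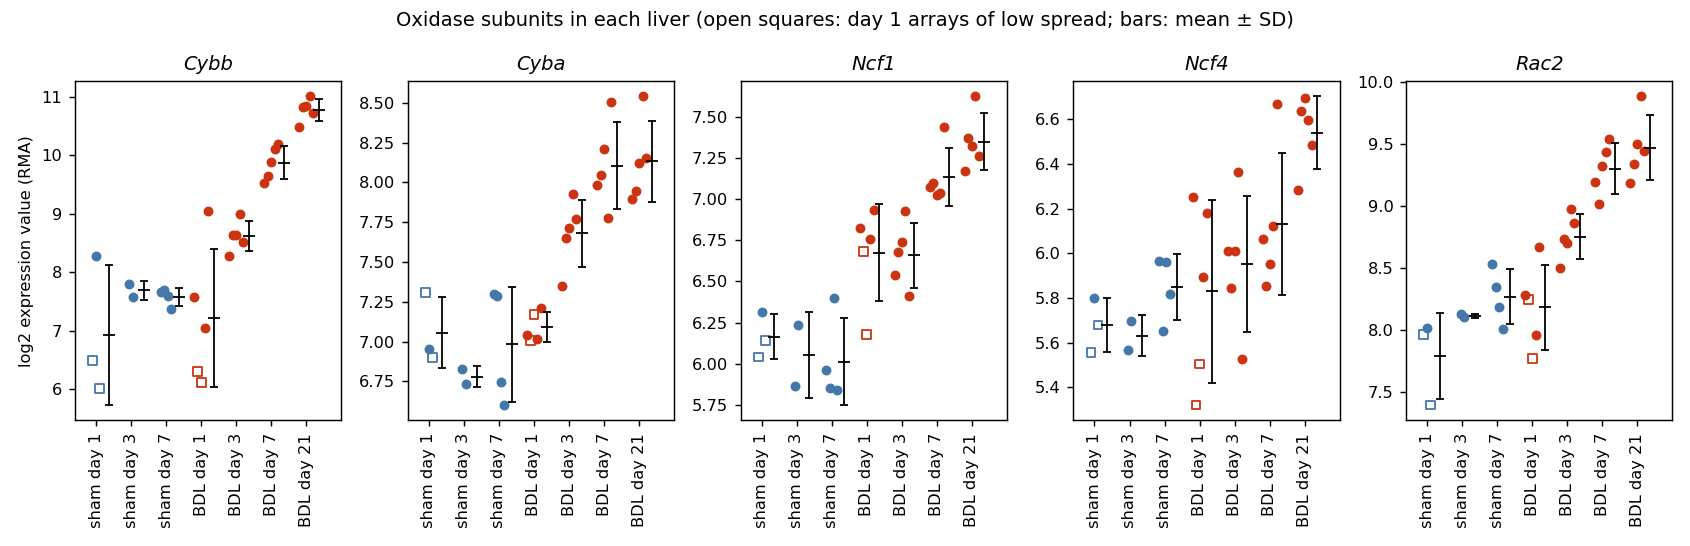
Log2 expression value (y axis, own scale per panel) of each subunit in each of the 29 livers, by group (x axis: sham days 1, 3 and 7 in blue, BDL days 1, 3, 7 and 21 in red); open squares are the 4 day 1 arrays of low spread, and the black bar is mean ± SD. Cybb climbs from 8.29 to 8.99 at BDL day 3 to 10.48 to 11.01 at day 21, while Ncf4 overlaps sham until day 21.

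By count, 1 of the 5 subunits rose at day 1, where 8.52% of all genes tested rose, and 3 rose at day 3, where 6.47% did. At day 7 4 of 5 rose against 14.2% of all genes, and at day 21 all 5 rose against 17.3%. None fell in any of the 4 comparisons, in which 4.8%, 3.69%, 4.97% and 7.9% of all genes did. The median log2 fold change of the 5 was 0.30, 0.64, 1.12 and 1.20 in that order, and over all genes tested it was 0.02 or 0.03. Arrays did not overlap between the groups for 4 subunits at day 3, 4 at day 7 and 5 at day 21, and for 15.1%, 14.2% and 17% of all genes with BDL higher. In all 18 alternatives Cybb, Cyba, Ncf1 and Rac2 passed at day 7 and all 5 passed at day 21. The days 7 and 21 comparisons share their sham livers.

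**Figure D2:**
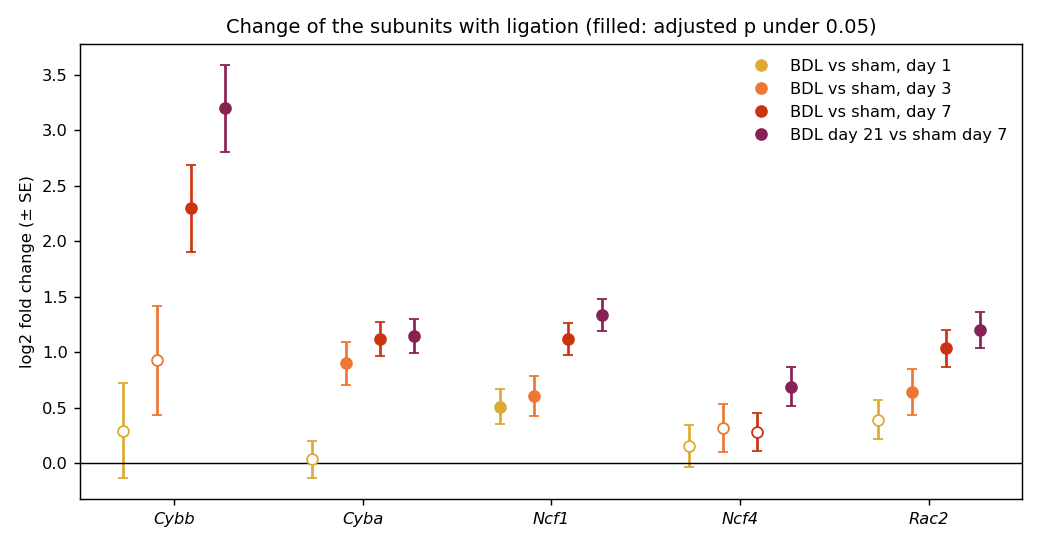
Log2 fold change with its SE (y axis) of each subunit (x axis) in the 4 comparisons of BDL with sham; filled points have a limma adjusted p under 0.05 and open points do not. Cybb reaches 2.30 at day 7 and 3.20 at day 21, and the other 4 lie between 0.28 and 1.34 at those days.

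Within ligated livers, successive days were compared for each subunit, with no test between subunits or steps. From day 1 to day 3, Cybb rose by 1.39 ± 0.37, Cyba by 0.59 and Rac2 by 0.57 on the log2 scale (limma adjusted p = 0.00984, 0.00633 and 0.0115), 3 of 5 against 12% of all genes. Ncf1 at -0.02 and Ncf4 at 0.12 did not pass. With a term for the arrays of low spread, or without them, only the Cyba call remained; the Cybb value was then as low as 0.67. From day 3 to day 7, Cybb at 1.26 ± 0.37, Ncf1 at 0.48 and Rac2 at 0.55 passed (adjusted p = 0.0400, 0.0350 and 0.0331), 3 of 5 against 4.6%, and Cyba at 0.42 (0.0862) and Ncf4 at 0.18 (0.624) did not. These 3 calls lie close to the threshold: with a single array left out, between 0 and 3 subunits passed, none of them without any of BDL day 3 replicates 1, 3 and 5 or BDL day 7 replicate 5, and 1 of them without BDL day 7 replicate 2 or 3. From day 7 to day 21 none passed in limma, where 0.401% of all genes rose. Cybb at 0.90 had an unadjusted p of 0.0214 (adjusted p = 0.469) and Ncf4 at 0.41 one of 0.0194, so 2 subunits had an unadjusted p under 0.05.

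The controls showed no called change, which does not show that they stayed level. Sham day 1 minus day 7 read -0.65 for Cybb and -0.48 for Rac2, and between -0.17 and 0.15 for Cyba, Ncf1 and Ncf4. Cybb had an SD of 1.20 over the 3 sham day 1 livers. No subunit passed between sham day 1 and day 7, where 1.15% of genes were higher and 2.96% lower, or between sham day 3 and day 7, where 0% were called. Leaving out sham day 1 replicate 2 was the exception: then Cybb and Rac2 were lower at day 1 than at day 7 (limma adjusted p = 0.0305 and 0.0455), with only the 2 arrays of low spread left in that group. The effect of ligation at day 7 exceeded that at day 1 for Cyba by 1.09 ± 0.23 (limma adjusted p = 0.00628) and for Cybb by 2.00 ± 0.58 (0.0447), 2 of 5 where 3.48% of genes passed in that direction. The Cyba difference passed in 24 of 25 alternatives, all but the one without the arrays of low spread, and the Cybb difference passed in 11 of 25. The effect at day 3 differed from that at days 1 and 7 for none of the 5 in limma, where 0.0748% and 0.0544% of all genes passed.

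Subunits of 1 complex changed by unequal amounts in the same livers. For each pair, the log2 difference within an array was compared between BDL and sham by a two-sided exact permutation test over arrays, 40 tests in all with Benjamini-Hochberg adjustment; no level is read across genes. Of these, 13 passed: 7 at day 7 and 6 at day 21. At day 7 Cybb rose more than Cyba by 1.18 ± 0.19 (SE), than Ncf1 by 1.18 ± 0.18, than Rac2 by 1.26 ± 0.09 and than Ncf4 by 2.02 ± 0.15 (n = 5 against 4, exact p = 0.00794 each, the smallest this design allows, adjusted p = 0.0265). At day 21 the same 4 gaps were 2.05, 1.86, 2.00 and 2.51 with the same p. A single test at this p could not pass on its own after adjustment over the 40. The tests are linked, since pairs share subunits and days 7 and 21 share sham livers. The Cybb minus Cyba difference lay above every sham liver in all 10 BDL livers of days 7 and 21.

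Ncf4 rose less than Cyba by 0.84, less than Ncf1 by 0.84 and less than Rac2 by 0.75 at day 7 (exact permutation adjusted p = 0.0265 each). At day 21 it trailed Ncf1 by 0.65 (0.0265) and Rac2 by 0.51 (0.0488), while its gap to Cyba of 0.46 did not pass (0.201). Under cyclic loess scaling the gaps of Ncf4 to Cyba at day 7 and to Rac2 at both days no longer passed, and 10 of 40 did. Ncf4 is the dimmest of these rows, with group means of 5.63 to 6.54, not far above the background level of 5. The part of its brightness in its gaps to the other subunits was not tested. Cyba, Ncf1 and Rac2 were not told apart: at day 7 their pairwise differences ranged from -0.00 ± 0.24 to 0.09 ± 0.18, with adjusted p of 0.779 to 0.992. None of the 20 tests of days 1 and 3 passed; with 3 and 2 sham livers the smallest possible exact p is 0.0179 and 0.0476.

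Set against Ptprc, carried by nearly all leukocytes, no subunit passed in 20 exact permutation tests. With so few arrays, no test could pass on its own after adjustment over the 20, even with the groups fully apart. Not passing therefore does not show that a subunit and Ptprc changed equally. Ptprc itself rose by 1.22 at day 7 and 1.31 at day 21 (limma adjusted p = 0.000963 and 0.000306) and read 0.02 at day 1 and 0.21 at day 3, neither past the threshold. At day 3 Cybb exceeded its change by 0.71 ± 0.18, Cyba by 0.69 ± 0.16, Rac2 by 0.43 ± 0.15 and Ncf1 by 0.39 ± 0.07, with no overlap of arrays and the smallest possible exact p of 0.0476, which adjusted to 0.136. Cybb exceeded the change of Ptprc by 1.08 ± 0.23 at day 7 and 1.89 ± 0.21 at day 21, with no overlap of arrays and the smallest possible exact p of 0.00794, which adjusted to 0.0794. Cyba, Ncf1 and Rac2 differed from Ptprc by between -0.19 and 0.02 at those days, with SEs of 0.15 to 0.33. Ncf4 fell short of it by 0.94 ± 0.32 at day 7 (adjusted exact permutation p = 0.106).

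Between livers of the same group, some subunits went up and down together. Each value was taken as its deviation from the group mean over 29 arrays, and the 10 pairs were tested by permutation of deviations within groups. Ncf1 and Ncf4 varied together with Pearson r = 0.70 and Spearman rho = 0.71 (permutation adjusted p = 9e-04 and 5e-04), and r was 0.72 without the 2 arrays farthest from the median. Cybb and Rac2 had r = 0.71 and rho = 0.73 (permutation adjusted p = 0.00197 and 0.0021; r = 0.64 without the 2 farthest), and Cyba and Rac2 had r = 0.62 and rho = 0.63. Cybb also varied with Ncf4 (r = 0.60) and Ncf1 (r = 0.55), and Ncf1 with Rac2 (r = 0.51), the last not by rank (rho = 0.37, permutation adjusted p = 0.0873). The membrane partners Cybb and Cyba had r = 0.21 (permutation adjusted p = 0.200), and Cyba had r = 0.19 with Ncf1 and 0.20 with Ncf4. Without the arrays of low spread, over 25 arrays, Cybb and Cyba reached r = 0.44 (permutation adjusted p = 0.00202), Cybb with Rac2 0.79, Cyba with Rac2 0.75 and Ncf1 with Ncf4 0.71, while Cybb with Ncf4 and Ncf1 with Rac2 no longer passed. Under cyclic loess scaling, Cybb and Cyba had r = 0.07 (permutation adjusted p = 0.724), and Cybb and Rac2 fell to 0.55 (0.0372). There 5 of the 10 pairs passed, and Ncf1 with Rac2 did not (r = 0.40, permutation adjusted p = 0.105).

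**Figure D3:**
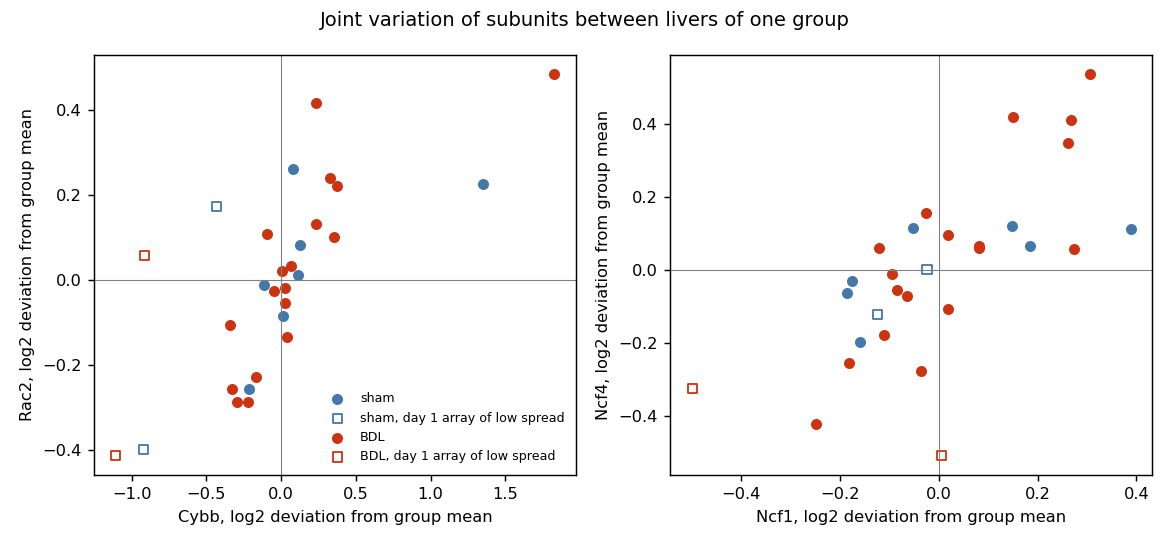
Deviation of each of the 29 livers from the mean of its group on the log2 scale, Cybb (x axis) against Rac2 (y axis) on the left and Ncf1 (x axis) against Ncf4 (y axis) on the right, sham in blue and BDL in red, with the day 1 arrays of low spread as open squares. Both clouds run from lower left to upper right, with r = 0.71 and r = 0.70.

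The other genes of the pathway were taken by list, and named genes are those with the largest called changes or those always given. Of the other parts of the phagocyte oxidase, 3 of 5 were tested. Rap1b, a small GTPase of the Rap family, rose by 0.59 at day 7 and 0.64 at day 21 (limma adjusted p = 0.00278 and 0.00102). Rac1, the widely expressed Rac, changed by 0.08, 0.10 and 0.24 up to day 7 and passed at day 21 with 0.38 ± 0.12 (0.0232), a call lost without replicate 1 or 4 of sham day 7 or replicate 3 or 4 of BDL day 21. Cybc1, a chaperone needed for gp91phox and p22phox, read between -0.26 and 0.25 and never passed. 

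Of the 9 other NADPH oxidases and partners, 7 were measured and only 3 were bright enough to test. Nox4, an oxidase of non-phagocytic cells that works with p22phox, fell. Sham livers averaged 8.01, 8.17 and 8.31 at days 1, 3 and 7, and BDL livers 7.17, 8.01, 7.59 and 7.83 at days 1, 3, 7 and 21. The differences were -0.85 ± 0.19 at day 1 (limma adjusted p = 0.00365), -0.17 ± 0.22 at day 3 (0.734), -0.72 ± 0.18 at day 7 (0.00414) and -0.48 ± 0.18 at day 21 (0.0489). This last call was lost in several alternatives, among them without replicate 2, 3 or 4 of sham day 7 or replicate 2, 3, 4 or 5 of BDL day 21, and the day 1 call within the arrays of low spread (-0.56 ± 0.19). Duox2, an epithelial oxidase, rose by 1.46, 1.25 and 1.19 at days 1, 7 and 21, and Noxa1, an activator of a non-phagocytic oxidase, by 0.62 at day 1 and 0.36 at day 21, but sham means of both lay under 5, where levels are not told apart from background.

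Switches of the oxidase, the kinases, lipid kinases and exchange factors that start assembly, were tested for 15 of 17 genes. Of these, 1 rose at day 1, 3 at day 3, 12 at day 7 and 14 at day 21, and none fell. Over all genes 8.52%, 6.47%, 14.2% and 17.3% rose, so the day 1 count is near the background. Medians of the list were 0.10, 0.38, 0.69 and 0.82. Vav1, a Rac exchange factor, rose by 0.83 ± 0.21, 1.18 ± 0.16 and 1.34 ± 0.16 at days 3, 7 and 21 (limma adjusted p = 0.00802, 5.79e-06 and 3.92e-07), the day 3 call being lost without sham day 3 replicate 2. The kinases Syk and Prkcd, the latter one of those that phosphorylate p47phox, rose by 0.69 and 0.79 at day 7 and by 0.99 and 0.97 at day 21, and the lipid kinase Pik3cd by 0.65 and 0.99. The single day 1 gene was Prkca with 0.90, and the one gene that did not pass at day 21 was Mapk14 with 0.12, both picked out after their values were seen.

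Receptors that trigger the burst had the highest medians of the 7 pathway lists from day 3 on, without a test between lists. Of 12 tested, 2 rose at day 1, 7 at day 3, and 11 at both day 7 and day 21, with medians of 0.20, 0.80, 1.35 and 1.61. Over all genes 8.52%, 6.47%, 14.2% and 17.3% rose at days 1, 3, 7 and 21. Itgam and Itgb2, the chains of complement receptor 3, were not tested against each other. At day 1 Itgam rose by 1.36 ± 0.24 (limma adjusted p = 0.00028) and Itgb2 read 0.51 ± 0.23 (0.168). At day 7 they rose by 1.43 and 1.78. Clec7a, the beta-glucan receptor dectin-1, read -0.08 at day 1 and 0.57 at day 3, neither called, and rose by 2.43 ± 0.27 at day 7 and 2.52 ± 0.27 at day 21 (2.87e-07 and 6.47e-08). The activating IgG receptor Fcgr4 rose by 1.71 and 2.21 at those days. The second gene up at day 1 was Tlr2 with 1.50, and the receptor that did not pass at day 7 or 21 was Fpr2 with 0.41 and 0.63, both picked out after their values were seen.

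Of 6 transcription factors known to act on these genes, 3 rose at day 7 and 2 at day 21, where 14.2% and 17.3% of all genes did. Spi1 (PU.1) read 0.21 ± 0.16 at day 1 (limma adjusted p = 0.437) and rose by 0.85 ± 0.18, 1.05 ± 0.14 and 1.24 ± 0.14 at days 3, 7 and 21 (0.00212, 4.02e-06 and 1.53e-07). Its changes lie close to those of Cyba, 0.90, 1.12 and 1.15, in the same comparisons, without a test of the likeness. Irf8 rose by 0.62 and 0.72 at days 7 and 21, and Irf1 by 0.67 at day 7 (0.0104), a call lost without sham day 7 replicate 3. Cebpe, a granulocyte factor, fell by 0.45 at day 1, a call lost without sham day 1 replicate 1, and by 0.45 at day 21.

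Of 4 tested partners of the burst, Slc11a1, a metal transporter of the phagosome, rose by 0.89, 1.49 and 1.70 at days 3, 7 and 21, and the day 3 call was lost without BDL day 3 replicate 4 or either sham liver. Clcn3, a chloride-proton exchanger, rose by 0.39 at day 1 (limma adjusted p = 0.028), a call lost within and without the arrays of low spread and without any of BDL day 1 replicates 1 and 5 and sham day 1 replicates 1 and 3. Hvcn1, the proton channel that balances the oxidase's charge, read between -0.13 and 0.09 and never passed. Among 12 tested genes for removal of superoxide and peroxide, 1, 2, 4 and 3 rose in the 4 comparisons, where 8.52%, 6.47%, 14.2% and 17.3% of all genes did. The counts that rose at days 1 and 21 are near those shares. In the same order 2, 1, 0 and 2 fell, where 4.8%, 3.69%, 4.97% and 7.9% of all genes did. Medians of the list were 0.17, 0.02, 0.22 and 0.14. Gpx3, the secreted glutathione peroxidase, rose by 1.02, 1.16 and 2.15 at days 3, 7 and 21, the first call being lost without sham day 3 replicate 2. Txnrd1, a thioredoxin reductase, rose by 0.59 and 0.49 at days 7 and 21. Gpx4, which reduces lipid peroxides, rose by 0.36 to 0.62 in all 4, its day 1 call being lost under cyclic loess and without any of sham day 1 replicate 2 and BDL day 1 replicates 3 and 5. Prdx4, a peroxiredoxin of the secretory pathway, fell by 0.40 at day 21.

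**Figure D4:**
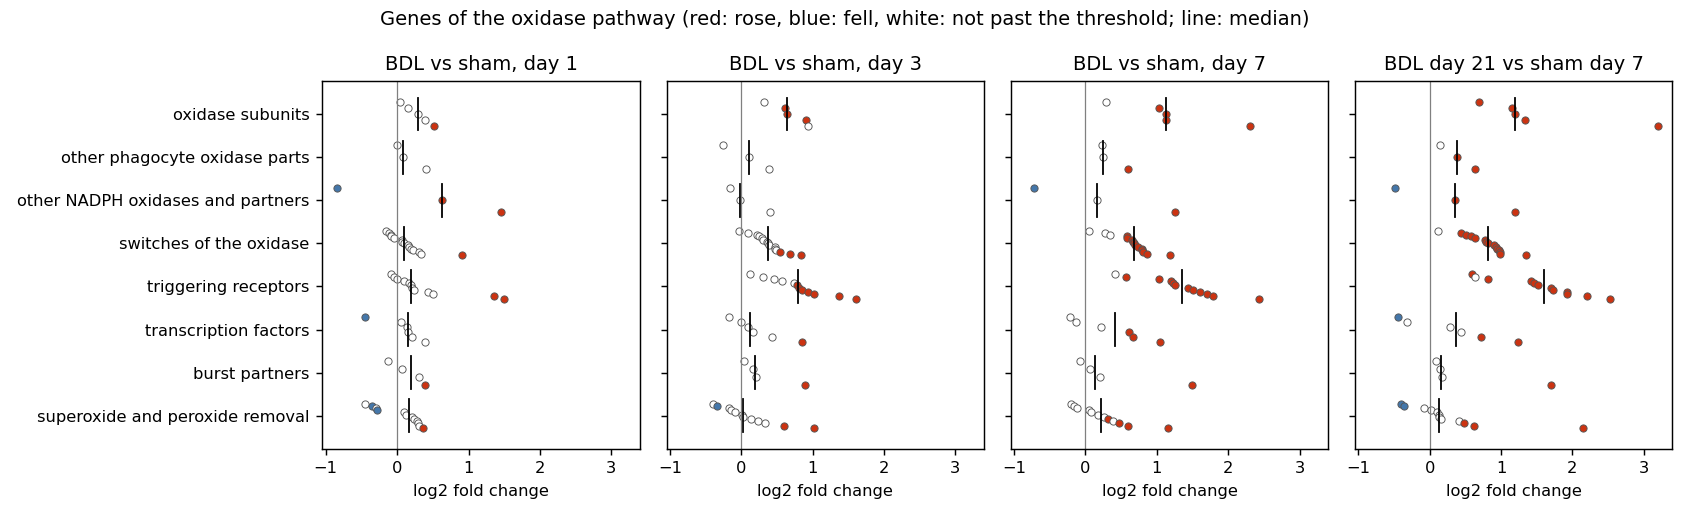
Log2 fold change (x axis) of each tested gene of the subunit list and 7 pathway lists (y axis) in the 4 comparisons of BDL with sham; red points rose, blue points fell and white points did not pass the threshold, and the black line is the list median. The subunits, switches and triggering receptors shift to the right together by day 7, with medians of 1.12, 0.69 and 1.35.

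Markers of the cells that carry the oxidase rose in the same livers. In the 4 comparisons of BDL with sham, 8.52%, 6.47%, 14.2% and 17.3% of all genes rose. Pan-leukocyte genes passed for 0, 4, 8 and 8 of 8 in the 4 comparisons, and the mean of the list per array was 6.09 to 6.74 in sham, 6.00 to 6.89 at BDL day 1, 6.83 to 7.26 at day 3, 7.35 to 7.76 at day 7 and 7.45 to 8.00 at day 21. Monocyte and macrophage genes rose for 7, 9, 12 and 13 of 13, with array means of 5.63 to 6.02 in sham and 7.56 to 7.92 at BDL day 21. Of 11 Kupffer cell genes, 1, 4, 10 and 10 rose, the day 1 count being near the share of all genes. At day 1, 1 fell, where 4.8% of all genes did. Array means were 7.56 to 8.25 in sham and 8.83 to 9.35 at BDL day 7. Kupffer cell genes and monocyte genes overlap in what they mark, and Itgam, Arhgdib and Mpo stand both in a marker list and in a pathway list.

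Of 10 neutrophil genes tested, 5 rose at day 1, 3 at day 3, 4 at day 7 and 5 at day 21, where 8.52%, 6.47%, 14.2% and 17.3% of all genes rose. Array means of the 13 measured genes were 4.40 to 4.72 in sham and 4.99 to 5.45 at BDL day 1, then 4.74 to 4.97, 4.71 to 4.95 and 4.60 to 5.36 at days 3, 7 and 21. Of the 13, 6 to 11 had group means under 5 in each group, and Ly6g, the defining surface marker, was under 5 in every array. Of the lymphocyte genes, 6 were tested, none rose, and array means lay between 4.34 and 5.18. The part of cell numbers in the subunits' changes was not tested.

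**Figure D5:**
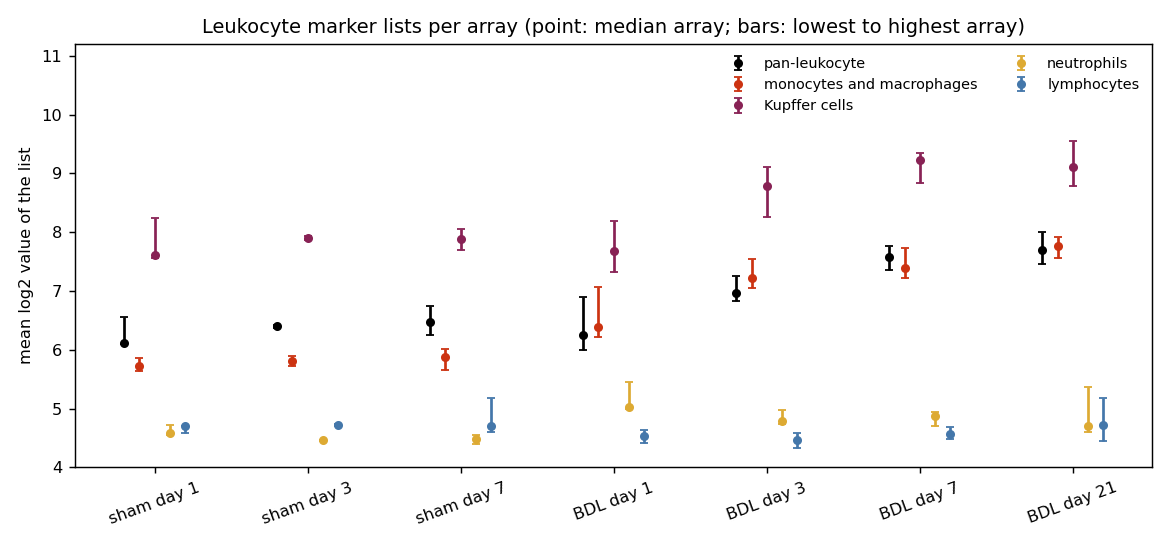
Mean log2 value of 5 leukocyte marker lists (y axis) by group (x axis); the point is the median array and the bar runs from the lowest to the highest array. Pan-leukocyte, Kupffer cell and monocyte and macrophage lists are above the sham arrays at BDL days 3, 7 and 21, and the neutrophil list is highest by median at BDL day 1.

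Finally, the genes whose course over the 7 group means lay nearest to each subunit were found by the root mean square difference of centred log2 profiles among 14694 genes, as a description. Nearest to Cybb were Atp6v0d2, a subunit of the vacuolar proton pump (0.224), Rragd, a Rag GTPase (0.258), and Lpl, lipoprotein lipase (0.266). For Cyba they were Abr, a Rac GTPase-activating protein (0.0601), Wfdc18 (0.0602) and Vav1 (0.0681), and for Ncf1 Cotl1, an actin-binding protein (0.0684), Myo9b (0.0717) and Arhgef2 (0.0720). Tfcp2l1 (0.0339), Zfp810 (0.0443) and Cdk14 (0.0573) came nearest to Ncf4, and Cttnbp2nl (0.0684), Lrrcc1 (0.0844) and Srgn, the granule proteoglycan serglycin (0.0892), to Rac2. Some of these genes had group means under 5, where levels are not told apart from background. Cdk14 did in every group but BDL day 21, and Wfdc18 in all sham groups and BDL day 1. So did Lrrcc1 at sham days 1 and 3 and BDL day 1, Rragd at sham day 1 and Atp6v0d2 at BDL day 1. Among themselves Cyba and Ncf1 lay 0.194 apart and Cyba and Rac2 0.196, while Cybb was 0.773 to 1.08 from the other 4.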

How the data were processed

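Liver RNA of 29 mice was measured on Affymetrix arrays, 1 array per sample. The authors deposited log2 values from RMA in oligo 1.52.0, per the submitters' processing notes. This method subtracts background, equalises the distributions of arrays and summarises probes, so a shift shared by most genes would be lost. Per the labels' protocols the array was Mouse Genome 430 2.0, but row identifiers match the annotation of Mouse Gene 2.0 ST, from which genes were named. Of 41345 rows, 23521 carried 1 symbol, 1814 several (not used), and 16010 are unnamed here; a RefSeq table (GRCm38.p6) held 23328 of the former. The row of highest mean was kept per gene. A build used by the authors is not given in these sources.

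Groups follow the labelled treatment and day. Each title has its own animal number, so the p-values reflect the spread among animals. Replicate numbers follow accession order. Genes above log2 5 in at least 3 arrays were tested with limma 3.58.1 under R 4.3.3 (1 mean per group over all arrays, eBayes, two-sided, Benjamini-Hochberg over 14699 genes, threshold 0.05). Permutation tests used numpy 2.4.6, exact or with 100000 resamples, and the ranks for Spearman rho came from scipy 1.17.1. Procedures were tested on simulated data. Named genes are the subunits, Rac1, Cybc1, Nox4, Spi1, Irf8, Hvcn1 and Ptprc, up to 4 per pathway list with the largest called change, and 3 nearest genes per subunit. Besides the 7 pathway lists, 11 marker lists were counted. Those not described above were eosinophils, dendritic cells, stellate cells, sinusoidal endothelium and cholangiocytes. Eosinophil and dendritic cell genes did not pass at any day. At day 7, 5 of 5 cholangiocyte, 6 of 8 stellate and 1 of 7 endothelial genes rose, where 14.2% of all genes did. The endothelial count is near that share. The sham day 7 livers, controls for days 7 and 21, were uneven in stellate genes. Their highest array mean of that list was 8.43, against a median of 7.00. Col1a1 had a median of 6.78 and a highest value of 10.43 there, against 9.88 to 10.46 at BDL day 21. With each array left out in turn, 4 subunits still passed at day 7 and 5 at day 21. The members and lists were chosen with earlier results of these data known. Alternatives were no filter or a stricter one (log2 6), the mean of a gene's rows, cyclic loess, array weights, only the arrays compared, all sham arrays as controls, each array left out, and the 4 arrays of low spread (SD under 1.6 over the genes tested) as a term, left out or alone.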

Additional observations from a re-analysis of the deposited data

Results flagged for a closer look

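Ncf1 in BDL day 7 replicate 5 read 7.441, apart from the 4 other livers of that group, the nearest of which was 7.10. The gap made up 0.821 of the group's range, above the critical share of 0.71 for 5 samples. It was the only one among 25 combinations of subunit and group looked at, and chance alone gives about 1 in 20. The same liver held the highest values of its group for Cybb, Cyba, Ncf4 and Rac2, and without it Ncf1 still rose at day 7.

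The effect of ligation at day 7 minus that at day 1 was 2.004 for Cybb and 1.086 for Cyba on the log2 scale, each a tested difference between days in limma (adjusted p = 0.0447 and 0.00628). The Cybb call was lost in most alternatives.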

How the results depend on the processing

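No paired analysis was possible because the titles carry a different animal number for each array and replicate numbers here are accession order. The 4 calls at day 7 and the 5 at day 21 against sham day 7 held in each of 18 alternatives, and Ncf4 joined at day 7 against all 9 sham arrays. The count at day 1 fell from 1 to 0 with a term for the arrays of low spread, without them, within them, and with only the arrays compared. BDL day 3 against day 1 fell from 3 to 1 with that term and without those arrays, and BDL day 7 against day 3 from 3 to 1 with no filter; Cyba joined there with array weights. BDL day 21 against day 7 went from 0 to 1 (Cybb) with array weights, with that term and with only the arrays compared. The effect at day 7 minus day 1 fell from 2 to 1 with no filter, array weights and only the arrays compared (Cyba kept), and without the arrays of low spread (Cybb kept), while Ncf1 joined with the term. At day 3 Cybb joined in 4 settings, Ncf1 was lost with only the arrays compared and Rac2 with no filter. The effect at day 7 minus day 3 went from 0 to 1 (Cybb) with only the arrays compared. With each array left out in turn, the counts ranged from 0 to 1 at day 1, 1 to 3 at day 3, 0 to 3 for BDL day 7 against day 3, 0 to 2 for sham day 1 against day 7 and 1 to 2 for day 7 minus day 1. In 44 subunit values an alternative had the opposite sign, and 0 of them passed in either. The causes were not tested, except that fewer arrays and more genes tested belong to the settings that leave arrays out or drop the filter. Group sizes of 2 and 3 sham livers limit days 3 and 1.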
